A study of Mus musculus with 12 samples.

Results

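The genes described here are 42 genes that cells switch on in response to type I interferon, followed across 12 RNA sequencing libraries of the BV2 line, which are immortalised mouse microglia. They were taken by symbol from 2 tables of gene expression that hold 24058 genes each after repeated symbols were set aside, and all 42 were found and passed the filter on low values, a mean of at least 1 FPKM. The title of the series links the level of PU.1 with Alzheimer's disease and microglial inflammation. PU.1 is the transcription factor encoded by Spi1, which myeloid cells need for their identity.

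In 1 experiment Spi1 was lowered transiently with a short hairpin RNA (Spi1 knockdown, 3 libraries) and set against a scrambled control (3 libraries). In the other experiment mouse Spi1 was raised transiently from a cDNA (Spi1 overexpression, 3 libraries) and set against an empty control, labelled as an empty frame (3 libraries). All groups were the same line, grown in medium with fetal bovine serum, sorted by flow cytometry and given no further treatment, so no interferon was added per the labels. Within each group the libraries are numbered 1 to 3. The labels do not say whether these were separate cultures, so the p-values below rest on a spread between libraries that may be purely technical.

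Type I interferons are secreted proteins that bind a receptor made of Ifnar1 and Ifnar2. The receptor's kinases Jak1 and Tyk2 phosphorylate Stat2, which joins Irf9 in a complex that binds interferon-stimulated response elements in promoters. The genes switched on this way block viral RNA, viral translation and viral budding, and they add sensors and signalling proteins of the same pathway. Microglia show this programme after exposure to nucleic acids or virus, and also in ageing and neurodegeneration.

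The promoters of 6 genes named in the results below are shown. Genes with values in every library that hold a match to the element described next were taken first. Ifit2, the gene with the smallest p among the rest, was then added. That matches are present in most of these windows therefore reflects the choice of genes. Each window holds the 160 bases before the gene's start in RefSeq (build GRCm38.p6), written 5′ to 3′ on the gene's strand. Capitals mark matches to a core form of the interferon-stimulated response element, spelled GAAA, any 2 bases, GAAA and searched on both strands.
Oas1g, chr5:120887614-120887773, minus strand: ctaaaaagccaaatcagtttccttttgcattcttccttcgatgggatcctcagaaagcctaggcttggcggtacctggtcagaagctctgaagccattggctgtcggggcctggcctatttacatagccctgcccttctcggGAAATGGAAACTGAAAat
Oas1a, chr5:120907526-120907685, minus strand: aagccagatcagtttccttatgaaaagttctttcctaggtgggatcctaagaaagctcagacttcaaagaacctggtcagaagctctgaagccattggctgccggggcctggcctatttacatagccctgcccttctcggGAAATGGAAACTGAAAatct
Ifit2, chr19:34550534-34550693, plus strand: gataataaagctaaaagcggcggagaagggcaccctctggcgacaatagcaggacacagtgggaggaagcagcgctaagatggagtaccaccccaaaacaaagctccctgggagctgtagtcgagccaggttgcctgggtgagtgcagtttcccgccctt
Ifit3, chr19:34583369-34583528, plus strand: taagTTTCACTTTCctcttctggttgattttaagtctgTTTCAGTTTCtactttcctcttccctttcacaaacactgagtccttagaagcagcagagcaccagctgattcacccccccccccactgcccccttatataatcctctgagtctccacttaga
Rsad2, chr12:26456453-26456612, minus strand: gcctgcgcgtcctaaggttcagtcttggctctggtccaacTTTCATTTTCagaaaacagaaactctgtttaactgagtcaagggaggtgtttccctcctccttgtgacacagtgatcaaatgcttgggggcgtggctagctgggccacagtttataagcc
Gbp7, chr3:142530176-142530335, plus strand: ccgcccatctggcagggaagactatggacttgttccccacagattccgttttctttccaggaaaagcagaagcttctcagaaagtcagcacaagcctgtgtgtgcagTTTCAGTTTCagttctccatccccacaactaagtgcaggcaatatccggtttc
Oas1g and Oas1a carried 2 overlapping matches each, which began 18 and 12 bases before the start in Oas1g and 20 and 14 bases before it in Oas1a. Their printed windows were identical in 138 of 165 alignment columns, or 83.64%. Ifit3 had 2 matches on the opposite strand, Rsad2 and Gbp7 had 1 each, and the Ifit2 window had none.

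The set of RefSeq promoters used here held 32 of the 42 genes, and it need not be all of RefSeq. Within 250 bases before an annotated start, 15 of these 32 genes (46.9%) had at least 1 such match, against 936 of all 27025 genes in the table (3.46%). GAGGAAGT, a form of the PU.1 motif, was found on either strand in 1 of the 32, Adar, against 2.79% of all genes. A match is a run of letters and not a measured binding site.

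In GENCODE M21, on mm10, 41 of the genes were placed among entries typed as protein coding, and families lay in clusters. The Oas and Oasl genes were all on chromosome 5, with Oas1g at bases 120876142 to 120887613 and Oas1a at 120896256 to 120907521. Ifit1, Ifit2 and Ifit3 lay close together on chromosome 19, where Ifit2 spans bases 34550694 to 34576419 and Ifit3 34583531 to 34588731. Gbp2, Gbp3 and Gbp7 lay close together on chromosome 3. Mx2 is the gene not placed, and entries of other types were not searched. How reads shared by near-identical copies were counted is not given in the sources used here, so values of Oas1a and Oas1g, of Ifit3 and its copy Ifit3b, and of the Gbp, Slfn8, Trim30a and Ifi204 families carry that uncertainty. Reads were not marked for strand. Exons of Rtp4 and Gbp7 overlapped those of Gm45338 and Gm43802 over 13.89% and 11.35% of their bases.

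Values are FPKM, reads per kilobase of gene per megaread of the library. Libraries held 22.3 to 33.1 megareads on genes, recovered from the steps in the values, and the fewest reads on any of the 42 genes in any library was 212, on Slfn5. Of 10 microglia or macrophage markers 9 were above 1 FPKM in every library, the exception being Cx3cr1, and the list summed to 2013 to 2234 FPKM in knockdown, 2427 to 2561 in scrambled, 2156 to 2433 in overexpression and 2205 to 2479 in empty control libraries. Of 5 neuronal markers 4, of 5 T or NK cell markers 3 (Cd3e, Cd3g and Nkg7) and of 5 astrocyte markers 2 (Aqp4 and Gja1) were listed at 0 in all libraries. The astrocyte list summed to 38.4 to 48.6 FPKM in knockdown, 58.6 to 66.2 in scrambled, 43.3 to 64.3 in overexpression and 53.1 to 72.6 in empty control libraries, nearly all of it Aldoc, which fell in knockdown by 0.49 on the log2 scale (limma, Benjamini-Hochberg adjusted p = 0.0126). The oligodendrocyte list summed to 11.5 to 12.4 FPKM in knockdown, 7.35 to 9.40 in scrambled, 7.92 to 12.5 in overexpression and 8.68 to 12.8 in empty control libraries, nearly all of it Cnp, which rose in knockdown by 0.49 (limma adjusted p = 0.00880). Of the neuronal, T or NK cell, B cell or plasmacytoid dendritic cell and fibroblast markers 0 were above 1 FPKM in every library. The part of these genes' cell types in the results was not tested. In bulk RNA, fewer cells that express a gene and less RNA per cell cannot be told apart.

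Spi1 itself moved as the labels state. It was at 50.9, 42.4 and 52.3 FPKM in knockdown libraries 1, 2 and 3, against 159, 169 and 168 FPKM in scrambled libraries 1, 2 and 3. The knockdown libraries all lay far below the scrambled ones, with a log2 fold change of -1.75 (standard error 0.0891; limma, Benjamini-Hochberg adjusted p = 0.000697). Overexpression libraries held 287, 224 and 206 FPKM, against 158, 117 and 131 FPKM in empty controls. These groups did not overlap either, and the log2 fold change was 0.81 (standard error 0.165; limma, Benjamini-Hochberg adjusted p = 1.0). With the library number as a block, a fit that compares same-numbered libraries with each other, that adjusted p was 0.0357 in limma.

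All 42 genes were expressed in all 12 libraries. Mean levels over the 12 libraries were lowest for Slfn5 and highest for Bst2, which encodes tetherin, a protein that holds budding virus at the cell surface. Together the 42 genes took 1.17, 1.26 and 1.10% of all reads on genes in knockdown libraries 1, 2 and 3, and 1.21, 1.45 and 1.18% in the scrambled controls. They took 1.16, 0.584 and 1.02% in overexpression libraries 1, 2 and 3, and 1.17, 0.601 and 1.02% in the empty controls. The libraries numbered 2 of the overexpression experiment stood apart from the other 10, at about the same low share in both groups. Their depth, 27.7 megareads in overexpression and 23.9 in the empty control, lay within the range of the other libraries.

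**Figure D1:**
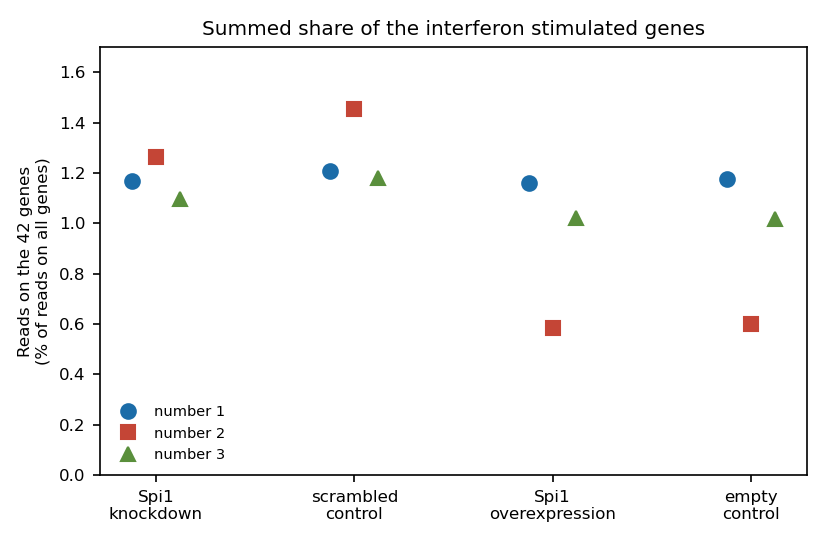
Summed reads on the 42 genes as a percentage of all reads on genes (y axis) in each library, by group (x axis), with a symbol for each library number. Number 2 of the overexpression experiment is the low point in both of its groups, at 0.584% and 0.601%, while number 2 is the high point in both groups of the knockdown experiment, at 1.26% and 1.45%.

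The number of the library carried most of the variation of these genes in the overexpression experiment. There, number 2 was the lowest library in both groups for 41 of 42 genes, against 45.9% of 11217 tested genes, and the exception was Ifitm3, which blocks viral entry at membranes. A test for any difference between numbers passed in 39 of 42 (limma F test, Benjamini-Hochberg adjusted p under 0.05), against 61.4% of all tested genes, and Ifitm3, Oas3 and Phf11d did not pass. Number 2 minus the mean of numbers 1 and 3 had a median of -0.78 on the log2 scale, against -0.086 over all tested genes, and ran from -2.47 to 0.030. With median-of-ratios scaling, which centres each library on its typical gene, the median was -0.69 and 40 of 42 were below 0. Without the libraries numbered 2, 15 of the 42 still differed between numbers 1 and 3, against 12.8% of all tested genes.

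By role, the IFIT genes, whose proteins bind foreign RNA and block its translation, were furthest below, with a median of -1.59 and a range from -2.21 to -1.12. Membrane and dynamin-like antiviral genes had a median of -1.37, and here Cmpk2 and Ifitm3 marked the ends of the range. Cmpk2, a mitochondrial nucleotide kinase gene, was at 249, 42.7 and 229 FPKM in overexpression libraries 1, 2 and 3, against 269, 43.4 and 229 FPKM in empty controls. Both groups had 1 low library and otherwise nearly equal values. Ifitm3 was at 599.7, 600.3 and 598 FPKM in overexpression, against 542, 619 and 653 FPKM in empty controls, with no low library numbered 2. Guanylate-binding proteins, GTPases that attack pathogen compartments, and the Schlafen and Samd9l group had medians of -0.90 and -0.91. Genes for Isg15, a ubiquitin-like modifier, with its protease Usp18, ligases and PARPs had a median of -0.89. The RNA and DNA sensors stood at -0.72 and the Oas group, whose enzymes make oligoadenylates that switch on RNase L, at -0.58. The 7 other stimulated genes had the smallest median of the roles, -0.34. Cmpk2, Ifit1, Ifitm3, Oas3, Mx1 and Ifi204 are named throughout because of their values, outside the rule for named genes.

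In the knockdown experiment number 2 stood at the other end. Number 2 was the highest library in both groups for 35 of 42 genes, against 24.1% of 11214 tested genes, and the lowest in both for 0. Number 2 minus the mean of numbers 1 and 3 had a median of 0.21, against 0.0083 over all tested genes, and 41 of 42 were positive under either scaling. The test for any difference between numbers passed in 0 of 42 genes, against 0.205% of all tested genes, with the lowest adjusted p at 0.0816. It passed in 6 when limma's trend and robust options were used, against 3.67% of all tested genes. Ifit1, which recognises the caps of foreign RNA, was at 27.3, 41.9 and 26.3 FPKM in knockdown libraries 1, 2 and 3, against 26.7, 52.4 and 31.0 FPKM in scrambled controls. The library numbered 2 was the high one in both groups. What the number stands for is not given in the labels, and whether number 2 was handled together in the 2 experiments is not stated.

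**Figure D2:**
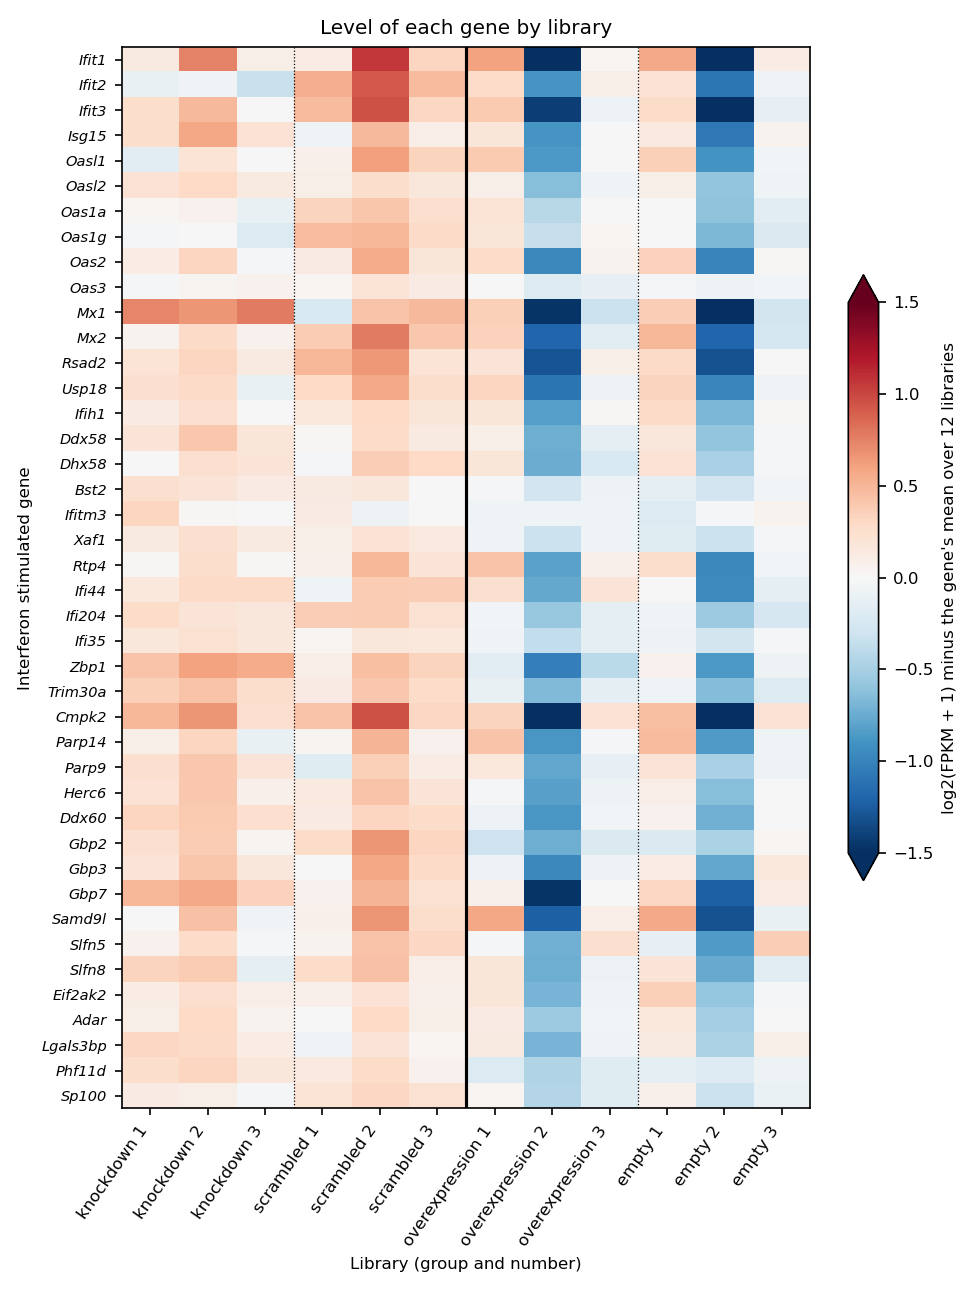
Each row is 1 of the 42 genes and each column 1 library; colour shows log2(FPKM + 1) minus the gene's mean over the 12 libraries, with colours saturating at 1.5 either way. The columns for overexpression 2 and empty 2 are blue in nearly every row, and Ifitm3 and Oas3 are the palest rows there.

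The split of each gene's variation into group, library number and remainder made the same contrast between the experiments. In the overexpression experiment the group (overexpression or empty) took a median of 1.47% of a gene's sum of squares, the number 97.9% and the remainder 0.451%, against 3.91, 86.1 and 5.58% over all tested genes. In the knockdown experiment the group (knockdown or scrambled) took a median of 23.3%, the number 63.5% and the remainder 9.09%, against 48.7, 32.8 and 7.39% over all tested genes. Oas1g and Ifit2 were at the upper end for the group in the knockdown experiment, with 87.1% and 86.4%. For these 42 genes the number therefore held a larger share, and the group a smaller one, than for the typical gene in both experiments.

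**Figure D3:**
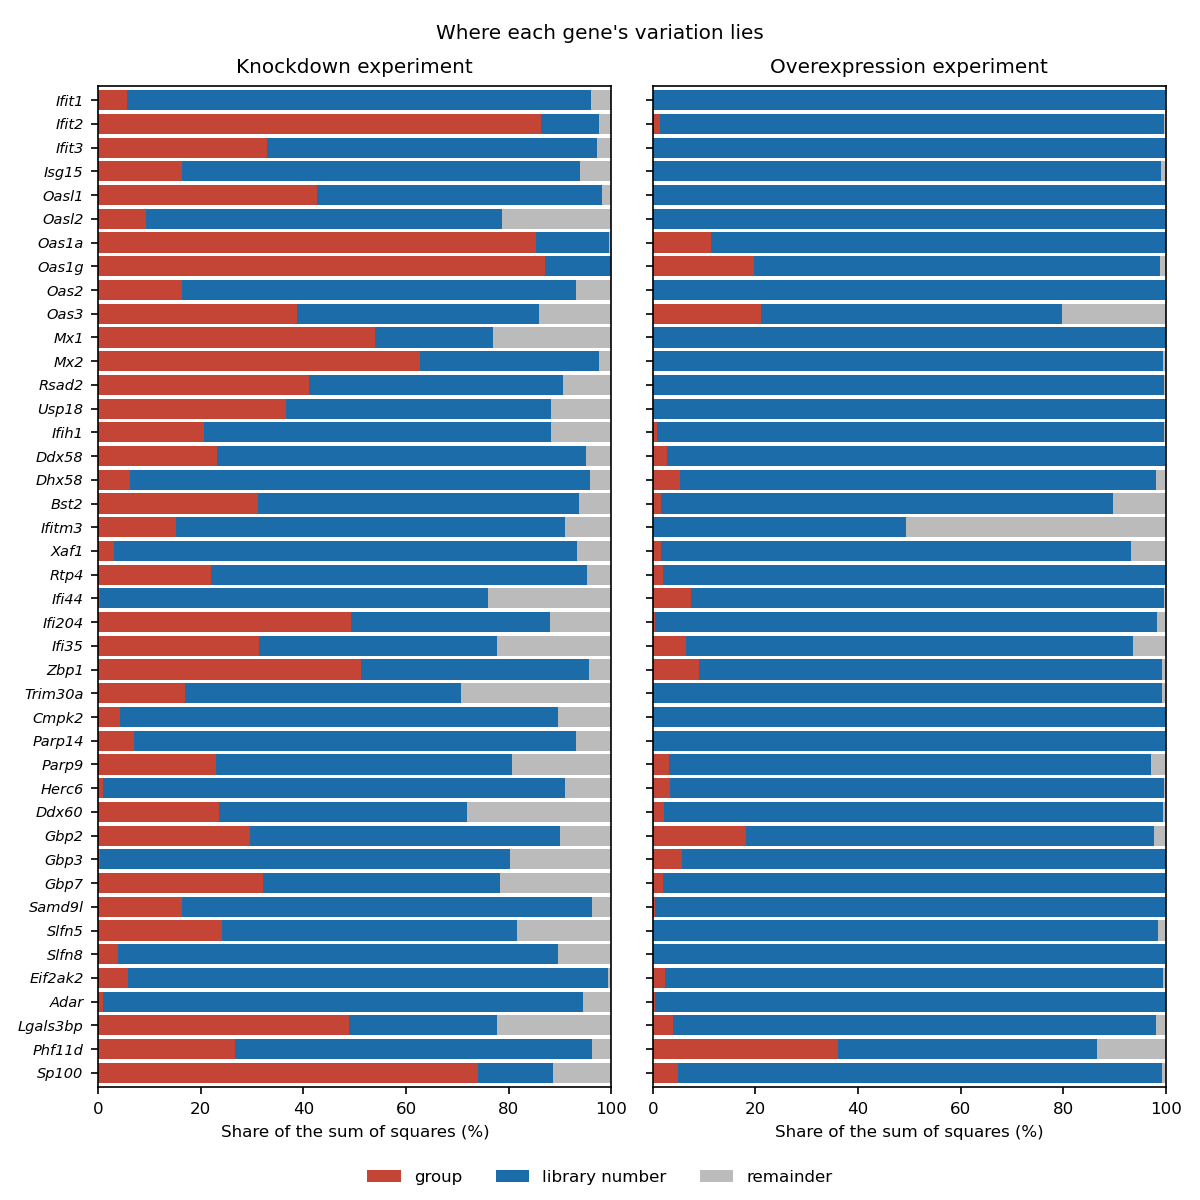
Stacked bars give, for each gene, the percentage of the sum of squares of log2(FPKM + 1) that lies between groups, between library numbers and in the remainder, in the knockdown experiment and the overexpression experiment. The bars of the overexpression experiment are almost wholly library number, and the longest group bars in the knockdown experiment belong to Oas1g, Ifit2 and Oas1a.

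With Spi1 lowered, 3 of the 42 genes fell and 0 rose. The 3 were Ifit2, Oas1a and Oas1g, and over all tested genes 8.86% fell and 17.4% rose (limma, Benjamini-Hochberg adjusted p under 0.05), so the share of these genes that fell, 7.14%, was near the background. The median log2 fold change was -0.075, with 24 negative and 18 positive, against 0.072 over all tested genes. The excess of rises over falls among all genes turned with the scaling: as deposited, 1952 genes rose and 993 fell, while under median-of-ratios scaling the counts were 1248 and 1454. With this scaling 5 of the 42 fell, Mx2 and Sp100 in addition, against 13% of all tested genes, 30 were negative and 12 positive, and the median was -0.15 against 1.4e-05 over all tested genes. Within same-numbered pairs, 16 of the 42 were lower in all 3 pairs, against 24.6% of all tested genes, and 12 were higher in all 3, against 47.3%.

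With the library number as a block 9 of the 42 fell in knockdown, against 14.7% of all tested genes, and 1 rose, against 30.6%. The genes that fell were Ifit2, Ifit3, Oas1a, Oas1g, Oasl1, Mx2, Rsad2, Samd9l and Sp100, and the gene that rose was Zbp1. Without both libraries numbered 2, the blocked fit left 2 that fell, Ifit2 and Oas1g, against 4.2% of all tested genes, and 0 that rose, against 7.09%. Without both numbered 1 it gave 15 that fell, against 13.9%, and 2 that rose, against 25%. Without both numbered 3 it gave 7 that fell, against 9.27%, and 0 that rose, against 20.2%.

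Among the IFIT genes, Ifit2 was at 61.7, 64.0 and 52.8 FPKM in knockdown libraries 1, 2 and 3, against 97.6, 127 and 93.2 FPKM in scrambled libraries 1, 2 and 3. Its product is an RNA-binding antiviral protein. All knockdown libraries were below all scrambled ones, with group means of 59.5 ± 5.92 FPKM in knockdown and 106 ± 18.4 FPKM in scrambled libraries (SD, n = 3 each). The log2 fold change of -0.81 (standard error 0.131; limma, Benjamini-Hochberg adjusted p = 0.00653) was the lowest of the 42. The call held without any single library, with adjusted p from 0.00949 to 0.0277 in limma, and without any same-numbered pair, from 0.0393 to 0.0487. Ifit3, whose human product stabilises that of IFIT1 on RNA, was at 119, 140.0 and 98.9 FPKM in knockdown, against 139, 193 and 124 FPKM in scrambled controls. Every pair was lower in knockdown but the groups overlapped, with a log2 fold change of -0.33 that passed only with the block (limma adjusted p = 0.215 without it and 0.0123 with it). Ifit1 had -0.17 and passed in neither fit (limma adjusted p = 0.658 without the block and 0.128 with it).

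Among the Oas and Oasl genes, Oas1g had 50.4, 51.0 and 43.8 FPKM in knockdown libraries 1, 2 and 3, against 70.3, 72.0 and 62.3 FPKM in scrambled libraries. Its close copy Oas1a had 66.2, 67.8 and 60.0 FPKM in knockdown, against 81.8, 86.5 and 77.5 FPKM in scrambled libraries. Neither gene's groups overlapped, and every pair was lower in knockdown. Oas1g had a log2 fold change of -0.49 (standard error 0.0877; limma, Benjamini-Hochberg adjusted p = 0.00935). For Oas1a it was -0.34 (standard error 0.0745; limma, Benjamini-Hochberg adjusted p = 0.0178). The call of Oas1a was lost without scrambled 2 (limma adjusted p = 0.0530) or knockdown 3 (0.0625), and when any same-numbered pair was left out (0.0831 to 0.0915). That of Oas1g held without any single library (0.0120 to 0.0334) and was lost without both libraries numbered 1 (limma adjusted p = 0.0622) or 2 (0.0654). Oasl1, which restrains translation of Irf7 in mouse, was at 409.8, 533 and 458 FPKM in knockdown, against 485, 707 and 581 FPKM in scrambled libraries. Its groups overlapped while each pair was lower, and its log2 fold change of -0.33 passed only with the block (limma adjusted p = 0.144 without it and 0.00838 with it). Oas2, Oas3 and Oasl2 passed in neither fit.

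Of the 6 membrane and dynamin-like effectors 0 passed in knockdown without the block and 2 fell with it. Mx2, a dynamin-like antiviral GTPase gene, was at 17.3, 20.4 and 17.3 FPKM in knockdown libraries 1, 2 and 3, against 21.8, 29.0 and 22.2 FPKM in scrambled libraries. The groups did not overlap, and the log2 fold change of -0.38 had a limma adjusted p of 0.0546 without the block and 0.00677 with it. Mx1, its relative, was at 17.9, 17.1 and 18.5 FPKM in knockdown, against 8.75, 14.3 and 14.9 FPKM in scrambled libraries. It was the only one of the 42 with all knockdown libraries above all scrambled ones, against 30.3% of all tested genes, while 5 had all of them below, against 15.1%. The log2 fold change of Mx1, 0.50, passed in neither fit (limma adjusted p = 0.0773 without the block and 0.0507 with it), and it passed in limma-voom on recovered reads. Rsad2, which encodes viperin, an enzyme that makes a chain-terminating nucleotide, was at 603, 651 and 572 FPKM in knockdown, against 739.5, 816 and 603 FPKM in scrambled libraries. Its groups overlapped, and -0.23 on the log2 scale passed only with the block (limma adjusted p = 0.176 without it and 0.0380 with it). Bst2, Ifitm3 and Cmpk2 passed in neither fit.

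Of the 8 RNA and DNA sensors 0 passed without the block. Zbp1, a sensor of Z-form nucleic acid that can trigger cell death, was at 47.8, 54.3 and 52.5 FPKM in knockdown libraries 1, 2 and 3, against 37.9, 48.4 and 44.8 FPKM in scrambled libraries. Each pair was higher in knockdown while the groups overlapped, and the log2 fold change of 0.24 passed only with the block (limma adjusted p = 0.122 without it and 0.0190 with it). Ddx58, which encodes RIG-I, the sensor of viral RNA ends, was at 31.6, 36.8 and 31.4 FPKM in knockdown, against 28.0, 33.6 and 30.4 FPKM in scrambled libraries. That was slightly higher in each pair, with a log2 fold change of 0.11 that passed in neither fit (limma adjusted p = 0.396 without the block and 0.102 with it).

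In the remaining groups Samd9l and Sp100 passed with the block alone. Samd9l, an antiviral restriction factor gene, was at 14.1, 19.3 and 13.5 FPKM in knockdown libraries 1, 2 and 3, against 14.8, 22.7 and 17.0 FPKM in scrambled libraries, with overlapping groups. Sp100, the gene of a nuclear body protein, was at 66.3, 64.8 and 60.0 FPKM in knockdown, against 70.3, 76.1 and 71.3 FPKM in scrambled libraries, with all knockdown libraries below. Their log2 fold changes were -0.20 and -0.19, with limma adjusted p of 0.0457 and 0.0392 with the block and 0.425 and 0.0822 without it. Of the guanylate-binding proteins and of Isg15, Usp18, ligases and PARPs 0 passed in either fit.

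Gbp7 was at 16.8, 17.8 and 15.1 FPKM in knockdown libraries 1, 2 and 3, against 12.2, 17.0 and 13.8 FPKM in scrambled libraries. Lgals3bp, a secreted glycoprotein gene, was at 343, 339 and 300.2 FPKM in knockdown, against 268, 316 and 282 FPKM in scrambled libraries. Rtp4, which in mouse is known to restrain the interferon response, was at 69.1, 82.1 and 69.0 FPKM in knockdown, against 72.2, 97.0 and 78.3 FPKM in scrambled libraries. In each of these the groups overlapped, with the pairs higher in knockdown for Gbp7 and Lgals3bp and lower for Rtp4. Phf11d was at 101, 105 and 95.3 FPKM in knockdown, against 93.5, 102 and 88.2 FPKM in scrambled libraries, overlapping and slightly higher in each pair. Their log2 fold changes, 0.20, 0.18, -0.16 and 0.090, passed in neither fit.

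With Spi1 raised, 0 of the 42 genes passed in either direction, against 0% higher and 0% lower of 11217 tested genes (limma, Benjamini-Hochberg adjusted p under 0.05). At an unadjusted p under 0.05 the count was 0 of 42, and 122 over all tested genes. The blocked fit also gave 0 of 42, against 0.0802% higher and 0.0357% lower over all tested genes, with the lowest adjusted p of the 42 at 0.148, that of Oas1g. The median log2 fold change was -0.012, against -0.014 over all tested genes, with a range from -0.24 to 0.25 and 26 negative against 16 positive. With median-of-ratios scaling 21 were negative and 21 positive. In 0 of the 42 did the overexpression range lie clear of the empty control range, against 1.66% above and 2.4% below over all tested genes.

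Within pairs, 8 genes were higher in overexpression in all 3 pairs, against 14% of all tested genes, and 16 were lower in all 3, against 23.8%. Oas1g was at 57.6, 39.8 and 51.9 FPKM in overexpression libraries 1, 2 and 3, against 50.9, 31.5 and 43.6 FPKM in empty controls. Oas1a was at 74.9, 48.2 and 65.1 FPKM in overexpression, against 65.1, 42.4 and 57.4 FPKM in empty controls. Both were higher in every pair, and both had their lowest library at number 2 in each group. The log2 fold changes were 0.25 and 0.19, with standard errors of 0.211 and 0.215 without the block and 0.0461 and 0.0373 with it.

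Ifit2 was at 80.6, 35.5 and 70.7 FPKM in overexpression libraries 1, 2 and 3, against 77.9, 30.9 and 64.1 FPKM in empty controls. Ifit3 was at 130.3, 36.6 and 93.4 FPKM in overexpression, against 120.4, 33.6 and 91.4 FPKM in empty controls. Rtp4 was at 92.5, 38.8 and 72.0 FPKM in overexpression, against 82.5, 34.5 and 66.6 FPKM in empty controls. All of these were higher in every pair by a margin smaller than the gap between number 2 and the other numbers. Oasl1 was at 607, 254 and 459 FPKM in overexpression, against 589, 248 and 449 FPKM in empty controls. Samd9l was at 21.4, 5.41 and 15.1 FPKM in overexpression, against 21.2, 5.07 and 12.9 FPKM in empty controls. Both of these, too, were higher in every pair, by a small margin.

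Zbp1 was at 31.2, 16.8 and 26.4 FPKM in overexpression libraries 1, 2 and 3, against 36.8, 18.9 and 33.4 FPKM in empty controls. Ddx58 was at 29.4, 16.2 and 25.0 FPKM in overexpression, against 31.2, 17.9 and 27.2 FPKM in empty controls. Gbp7 was at 12.4, 3.56 and 11.6 FPKM in overexpression, against 14.7, 4.40 and 12.7 FPKM in empty controls. In these 3 genes every pair was lower in overexpression, within overlapping groups. Lgals3bp was at 304, 171 and 264 FPKM in overexpression, against 304, 199 and 296 FPKM in empty controls. Phf11d was at 73.3, 61.3 and 74.6 FPKM in overexpression, against 76.8, 73.8 and 79.9 FPKM in empty controls. They too were lower in every pair, and Phf11d had a smaller gap at number 2 than the genes above.

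Mx2 was at 21.3, 6.70 and 14.6 FPKM in overexpression libraries 1, 2 and 3, against 23.8, 6.69 and 13.6 FPKM in empty controls. Rsad2 was at 597, 212 and 557 FPKM in overexpression, against 639, 211 and 525 FPKM in empty controls. Sp100 was at 62.4, 44.7 and 53.7 FPKM in overexpression, against 64.3, 48.6 and 57.0 FPKM in empty controls. Pairs of Mx2 and Rsad2 went either way, those of Sp100 were all lower in overexpression, and the groups overlapped in all of them.

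**Figure D4:**
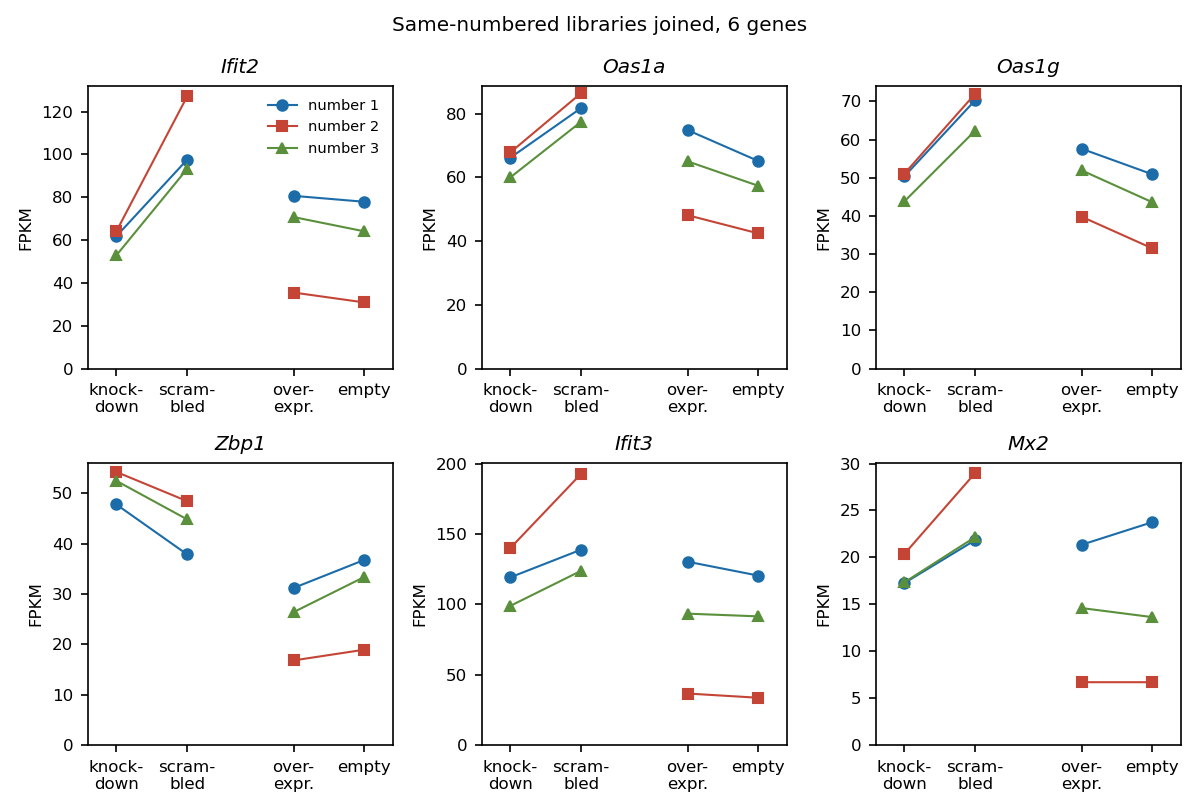
FPKM of 6 genes (y axes, from 0) in each library, with lines joining same-numbered libraries: knockdown to scrambled on the left of each panel and overexpression to empty on the right. Ifit2, Oas1a and Oas1g are lower in all knockdown libraries than in all scrambled ones, while in the overexpression experiment number 2 lies below the other numbers in both groups.

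The effects of overexpression and of knockdown were set against each other in 1 fit over the 12 libraries, as overexpression minus empty less knockdown minus scrambled. Without the block 0 of the 42 differed (limma, Benjamini-Hochberg adjusted p under 0.05), against 1.9% with a positive and 2.94% with a negative difference over 11224 tested genes, and 1 of the 42 and 2398 of all tested genes had an unadjusted p under 0.05. With the block 8 had a positive difference, against 12.9% of all tested genes, and 5 a negative one, against 28.6%. The positive ones were Ifit2, Oas1g, Oas1a, Ifit3, Oasl1, Mx2, Rtp4 and Samd9l, and the negative ones Zbp1, Gbp7, Lgals3bp, Phf11d and Ddx58. Differences were 0.94, 0.74 and 0.52 on the log2 scale for Ifit2, Oas1g and Oas1a and -0.48 for Zbp1. These 4 also passed with the block when the libraries of any 1 number were left out of both experiments. The other 9 did not pass in at least 1 of those fits. Without number 2 the counts were 3 positive, against 5.13% of all tested genes, and 1 negative, against 8.73%.

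**Figure D5:**
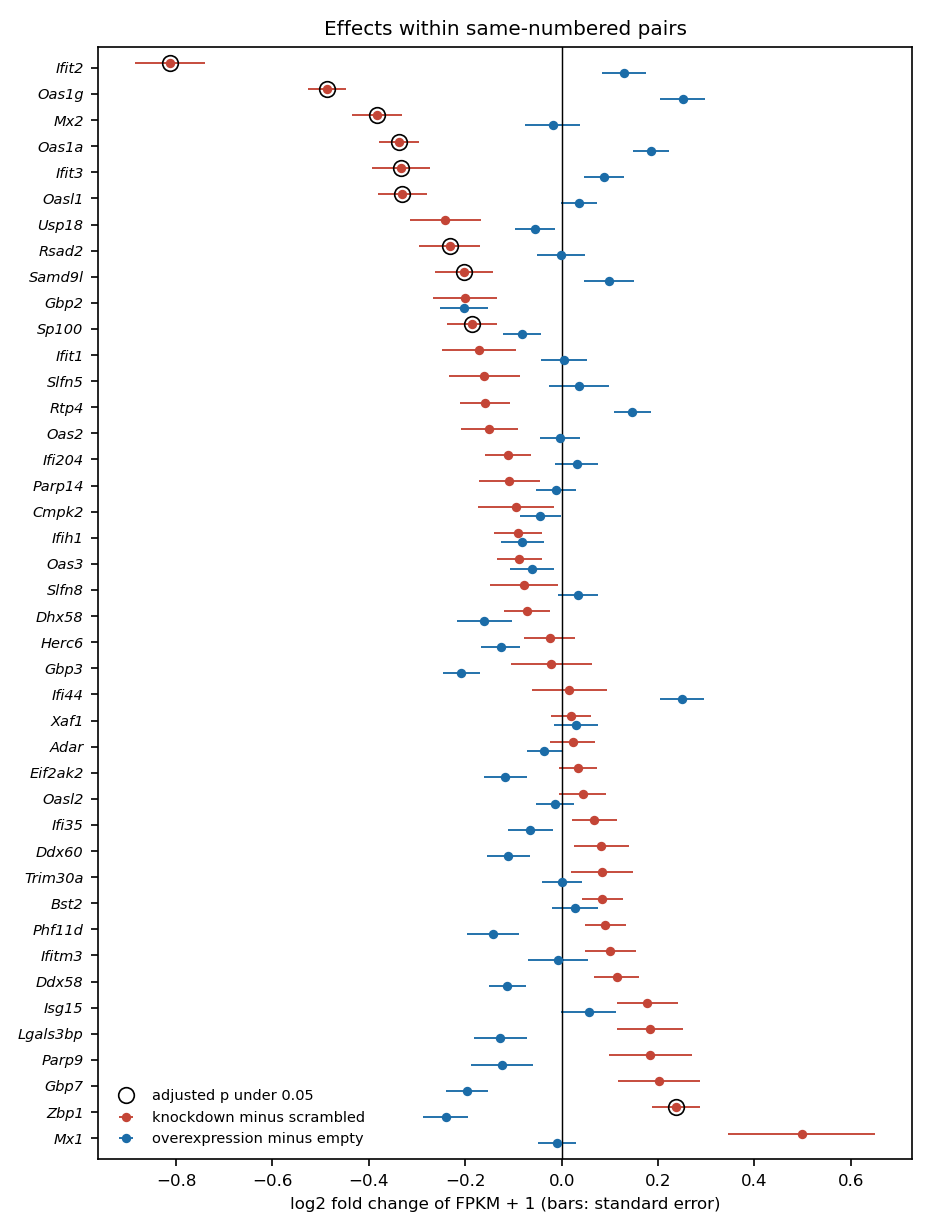
log2 fold changes of FPKM + 1 (x axis) for the 42 genes, knockdown minus scrambled and overexpression minus empty, with standard errors from the fits within same-numbered pairs. Black rings mark adjusted p under 0.05, which 10 genes reach in knockdown and 0 in overexpression; Ifit2, Oas1g and Oas1a lie left of 0 in knockdown and right of it in overexpression.

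All 42 genes averaged higher in the scrambled than in the empty controls, and 2 of them passed the test. Spi1 itself also lay higher in all scrambled than in all empty libraries, but only just. The lowest scrambled library held 159 FPKM of Spi1 and the highest empty library 158 FPKM. The log2 difference of Spi1, 0.30, did not pass (limma adjusted p = 0.284). In scrambled minus empty controls the log2 difference was positive for 42 of 42 genes under either scaling, with a median of 0.48 against -0.041 over all tested genes. In 17 of the 42 all scrambled libraries were above all empty ones, against 7.09% of all tested genes, and in 0 were they all below, against 15.8%. Only 2 passed as higher, against 0.633% of all tested genes, and 0 as lower, against 3.47% (limma, Benjamini-Hochberg adjusted p under 0.05). They were Oas1g, with a log2 difference of 0.71 (limma adjusted p = 0.0454), and Ifi204, a sensor gene of the interferon-inducible p200 family, with 0.61 (limma adjusted p = 0.0451). Ifi204 was at 253, 255 and 230.1 FPKM in scrambled libraries 1, 2 and 3, against 189, 134 and 164 FPKM in empty libraries, without overlap. Both calls were lost without any 1 of the 3 knockdown libraries, the 3 scrambled libraries, overexpression 3, empty 2 or empty 3, with limma adjusted p from 0.0589 to 0.159. Without overexpression 2, which enters through the shared estimate of spread, 7 of the 42 passed as higher, against 0.891% of all tested genes, and 0 as lower, against 4.32%.

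Much of this difference rested on number 2. Without the libraries numbered 2 the median of scrambled minus empty was 0.12, against -0.067 over all tested genes, 32 of 42 were positive and 0 passed, against 0.57% higher and 3.53% lower of all tested genes. Knockdown minus empty had a median of 0.39, against 0.027 over all tested genes, with 42 of 42 positive. For Ifit2 the difference to the empty control was 0.14 in knockdown and 0.95 in the scrambled control, for Oas1g 0.22 and 0.71, and for Oas1a 0.25 and 0.59. These values include empty 2, the lowest empty library for each of these genes. In libraries 1 and 3, Ifit2 was at 61.7 and 52.8 FPKM in knockdown, against 77.9 and 64.1 FPKM in empty controls. There Oas1g was at 50.4 and 43.8 FPKM, against 50.9 and 43.6 FPKM, and Oas1a at 66.2 and 60.0 FPKM, against 65.1 and 57.4 FPKM. Knockdown minus empty was not fitted without number 2. High scrambled controls and low knockdown libraries cannot be told apart for these genes, because the type of control and the experiment coincide.

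The genes that make and relay the interferon signal were read from lists beside these 42, with Usp18 alone on both sides. Counts in knockdown stand against 8.86% lower and 17.4% higher of all tested genes without the block, and 14.7% and 30.6% with it. Of 8 interferon genes 0 were high enough to test: Ifnb1 had 58 reads in all 12 libraries together, Ifnz had 17, and Ifna1, Ifna2, Ifna4, Ifna5, Ifne and Ifng had 0. By library, Ifnb1 had 0, 6 and 5 reads in knockdown, 2, 2 and 1 in scrambled, 4, 16 and 9 in overexpression and 3, 1 and 9 in empty control libraries. Of the 4 receptor genes 1 fell in knockdown, Ifngr2, a chain of the receptor for type II interferon, at 67.0, 64.1 and 71.6 FPKM in knockdown libraries, against 86.5, 90.8 and 90.0 FPKM in scrambled libraries. The groups did not overlap, and the log2 fold change was -0.40 (limma, Benjamini-Hochberg adjusted p = 0.00713). Ifnar1 stood at 13.7, 13.7 and 13.9 FPKM in knockdown, against 14.6, 13.8 and 14.1 FPKM in scrambled libraries, and did not pass.

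Of 12 kinases and transcription factors of the pathway 2 fell in knockdown and 0 rose. Irf9, the DNA-binding partner of Stat2, was at 20.5, 21.6 and 22.0 FPKM in knockdown libraries 1, 2 and 3, against 27.9, 28.7 and 26.3 FPKM in scrambled libraries, a log2 fold change of -0.36 (limma adjusted p = 0.00931). Tyk2 was at 14.7, 14.0 and 14.8 FPKM in knockdown, against 16.9, 17.3 and 16.6 FPKM in scrambled libraries, a log2 fold change of -0.21 (limma adjusted p = 0.0341). Neither gene's groups overlapped. With the block 3 fell, Irf7 in addition at -0.22 (limma adjusted p = 0.0150), and Irf2 rose by 0.24 (0.0497). Stat2 passed in neither fit, with a log2 fold change of -0.21.

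Of 13 sensors and adaptors that feed interferon production 2 fell in knockdown and 1 rose. Tlr9, a receptor for DNA, and Ticam1, the adaptor of Tlr3, had log2 fold changes of -0.53 and -0.31 (limma adjusted p = 0.00862 and 0.0272). Tlr3, a receptor for double-stranded RNA, was at 11.9, 15.3 and 11.5 FPKM in knockdown, against 6.76, 9.20 and 7.75 FPKM in scrambled libraries. All knockdown libraries were above the scrambled ones, with a log2 fold change of 0.64 (limma adjusted p = 0.0147). With the block 4 of this list fell, Tlr7 and Tbk1 in addition at -0.27 and -0.16, and 2 rose, Traf6 in addition at 0.17 (limma adjusted p = 0.0128, 0.0282 and 0.0325). Of the 5 feedback inhibitors tested, Usp18 among them, 0 passed without the block, and Ptpn11, a phosphatase gene, rose with it.

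In the overexpression comparison 0 of these pathway genes passed with or without the block, and 0 passed in scrambled minus empty. In the overexpression effect minus the knockdown effect 0 passed without the block, against 1.9% higher and 2.94% lower of all tested genes, and 10 with it, against 12.9% and 28.6%. On the log2 scale, those above 0 were Ifngr2 at 0.36, Irf9 at 0.42, Irf7 at 0.27, Tlr9 at 0.51, Ticam1 at 0.29 and Tlr4 at 0.27, with limma adjusted p from 0.00404 to 0.0497. Those below 0 were Tlr3 at -0.70, Irf2 at -0.28, Ptpn11 at -0.22 and Traf6 at -0.20, with limma adjusted p from 0.00148 to 0.0380. The library number passed in the overexpression experiment in 1 of 4 receptors, 9 of 12 kinases and transcription factors, 10 of 13 sensors and adaptors and 3 of 5 feedback inhibitors, Usp18 among them, against 61.4% of all tested genes. Stat2 was at 54.2, 23.9 and 47.2 FPKM in overexpression libraries 1, 2 and 3, against 54.9, 25.5 and 45.4 FPKM in empty controls, with number 2 the lowest in each group. Tlr3 was at 11.1, 2.86 and 7.96 FPKM in overexpression, against 12.5, 3.04 and 7.61 FPKM in empty controls, again lowest at number 2. Ifnar2 was highest at number 2, at 16.9, 24.5 and 20.4 FPKM in overexpression, against 18.4, 27.9 and 22.3 FPKM in empty controls, and so was Ticam1, at 13.1, 20.4 and 12.6 FPKM in overexpression, against 12.3, 21.5 and 13.4 FPKM in empty controls.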

How the data were processed

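The authors deposited 2 tables of FPKM, with 1 column per library and 24062 entries each, of which 4 with repeated symbols were left out. Per the submitters' processing notes CASAVA 1.8.2, bcl2fastq, STAR 2.5.2a, featureCounts, DESeq2 1.14 and the build mm10 were used, without roles; the annotation and strand handling are not stated there. Libraries were polyA RNA in an unstranded TruSeq v2 format, read as 100-base single reads, per the labels' protocols. The unit was read from the values: whole reads, within a tolerance of 0.01, were recovered for 17838 of the 17838 genes above 0, and each library was scaled by its own read total, so the tables share 1 scale.

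Groups came from the treatment labels and numbers from the titles. Each experiment was fitted in limma 3.58.1 (R 4.3.3) on log2(FPKM + 1), for genes averaging 1 FPKM or more, with Benjamini-Hochberg adjustment over all of them and a threshold of 0.05; differences of effects and of controls used all 12 libraries. Fold changes are on this scale and understate those of low genes. The library number was tested as a factor beside the group. Same-numbered libraries deviated together from their group means. In the order of the numbers, correlations across genes were 0.397, 0.540 and 0.345 in knockdown and scrambled libraries. They were 0.791, 0.845 and 0.513 in overexpression and empty libraries. All were above the limit of 0.1, so blocked values are given. Correlations of unlike-numbered libraries ran from -0.746 to 0.161. Overexpression 3 with empty 1, at 0.161, also exceeded the limit, so passing it does not by itself mark a pair. The pairing comes from the numbers in the titles and this check. Alternatives were another pseudocount (0.1), no filter, median-of-ratios scaling, trend and robust options, limma-voom on recovered reads, the block and leaving out libraries. The fits were also run on simulated reads with changes set either by group or by library number, never both together. That run does not show how the group tests behave when numbers differ as they do here.

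The genes, lists and tests were chosen with earlier results of these data known. Values in every library are given for Spi1 and for genes past the threshold in knockdown, overexpression or the difference of effects, with or without the block. Promoters came from RefSeq and were scanned in Python 3.11.15 with Biopython 1.88.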

Additional observations from a re-analysis of the deposited data

Results flagged for a closer look

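With the library number as a block, the overexpression effect minus the knockdown effect passed the threshold in 13 of the 42 genes, and these are the results to look at again (limma, Benjamini-Hochberg adjusted p under 0.05). Of these, 8 were positive, or 19% of the 42, against 12.9% of all tested genes. The other 5 were negative, or 11.9% of the 42, against 28.6%. In overexpression alone 0 of the 42 passed, with or without the block. The log2 difference was 0.94 for Ifit2, 0.74 for Oas1g, 0.52 for Oas1a, 0.42 for Ifit3, 0.37 for Oasl1, 0.36 for Mx2, 0.31 for Rtp4 and 0.30 for Samd9l. It was -0.48 for Zbp1, -0.40 for Gbp7, -0.31 for Lgals3bp, and -0.23 each for Phf11d and Ddx58. Over all tested genes the median difference was -0.088 as deposited and -0.0045 with median-of-ratios scaling. The block was not run together with that scaling. Without the block 0 of these 13 passed, against 1.9% with a positive and 2.94% with a negative difference over all tested genes. In 4 of them, Ifit2, Oas1g, Oas1a and Zbp1, the blocked difference also passed whichever number was left out of both experiments.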

How the results depend on the processing

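Shares of all tested genes called in the same way stand in brackets. Knockdown falls counted 3 genes (8.86%), 5 with median-of-ratios scaling (13%) and 9 with the replicate block (14.7%). Rises counted 0 (17.4%), 1 in limma-voom (Mx1, 19.5%) and 1 with the block (30.6%). Without single libraries or same-numbered pairs, falls ranged from 1 to 4 (1.8 to 6.97%) and rises from 0 to 1 (2.2 to 13.5%). The block with a same-numbered pair left out was a choice made after seeing the data. In it falls ranged from 2 to 15 (4.2 to 13.9%) and rises from 0 to 2 (7.09 to 25%). The overexpression count was 0 under every alternative listed in the methods (at most 0.223% in either direction). Differences of effects counted 0 negative (2.94%) and 0 positive (1.9%), but 5 negative (28.6%) and 8 positive (12.9%) with the block. With a pair also left out they ranged from 1 to 3 negative (8.73 to 19.6%) and from 3 to 10 positive (5.13 to 10.5%). Scrambled minus empty counted 2 higher (0.633%), 0 with a pseudocount of 0.1 (0.508%), 0 with no filter (0.527%) and 7 with median-of-ratios scaling (1.34%). Without single libraries or numbers it counted 0 to 7 (0 to 0.891%), 7 being without overexpression 2 (0.891%). Library number in the knockdown experiment counted 0 (0.205%), and 6 with trend and robust options (3.67%). In the overexpression experiment it counted 39 (61.4%), and 15 to 39 without a number (12.8 to 60.2%). The cause of these moves was not tested. Over all genes, knockdown called 2945, and 449 without number 2. Unblocked differences of effects that changed sign without single libraries ranged from -0.12 to 0.94 for Ifit3, -0.070 to 0.79 for Mx2, -0.054 to 0.66 for Rtp4, -0.21 to 0.82 for Samd9l, -0.45 to 0.010 for Ddx58 and -0.88 to 0.10 for Gbp7, each lowest without empty 2 and highest without overexpression 2; Samd9l was also negative without overexpression 1. Among the 42 genes and the pathway lists, the block changed no call beyond those named here, above and among the results to look at again. No paired analysis was possible for scrambled minus empty because numbers pair libraries only within an experiment. With 3 libraries a group, small changes may be missed.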
